A study of Mus musculus with 12 samples.

Results

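The genes described here encode the autophagy machinery: 36 genes for the proteins that start, build and load the autophagosome, taken by symbol from a table of 27109 loci of mouse liver, of which 23951 carry a gene name. All 36 symbols were found, each at 1 locus that carries no other gene name, and all 36 were tested in every comparison used. The livers came from C57BL/6 mice that lacked Atf4 in the liver (labelled LsATF4-KO) or from wild-type mice. Each mouse received an intraperitoneal dose of 1 mg/kg tunicamycin, an inhibitor of protein N-glycosylation that stresses the endoplasmic reticulum (ER), or of 0.3% DMSO, and livers were taken 6 h later. The 4 groups of 3 libraries each were knockout with tunicamycin, knockout with DMSO, wild type with tunicamycin and wild type with DMSO. Age, sex, the promoter behind the deletion and any pooling of mice are not stated in the labels. ATF4 is a transcription factor that stressed cells make when the kinase PERK phosphorylates the initiation factor eIF2.

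Macroautophagy wraps cytoplasm or organelles in a double membrane, the autophagosome, which fuses with the lysosome for degradation. Kinases of the ULK family with their scaffold start the process, a class III PI3-kinase complex marks the membrane with phosphatidylinositol 3-phosphate, and a pair of ubiquitin-like conjugation systems attach ATG8 proteins (the LC3 and GABARAP families) to the growing membrane, where they bind cargo receptors such as p62. The liver depends on autophagy in fasting and for the clearance of damaged proteins and organelles. In mouse fibroblasts starved of amino acids, ATF4 and its partner CHOP are known to drive several of these genes. The question that the design puts to this group of genes is which of them respond to tunicamycin in liver and whether that response needs ATF4.

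The deposited values are 1 FPKM (fragments mapped to a locus, scaled by transcript length and library size, a level per length) for each locus and group, pooled over 3 libraries by the authors' program Cuffdiff. No spread over libraries and no depth per library can be given. The deposited p-values come from the authors' Cuffdiff test of these samples alone, and the spread it used for a gene cannot be checked against libraries. A gene is said to have risen, fallen, or been higher or lower where the q-value of the authors' deposited table was under 0.05, and otherwise only its values are given. The 95% intervals were computed here from the deposited test statistic. Lane 5 held the 3 libraries of the knockout with DMSO and lane 4 held the remaining 9, so in comparisons with that group genotype or treatment cannot be told apart from lane. The locus of Atf4, which the assembly merged with Cacna1i, stood at 114 FPKM in the knockout with tunicamycin, at 22.8 in the knockout with DMSO, at 356 in wild type with tunicamycin and at 46.9 in wild type with DMSO. The knockout with tunicamycin also carried transcripts of other tissues, in how many of its 3 libraries cannot be told from pooled values. The 7 markers of adrenal cortex summed to 1272 FPKM there, against 6.76 in the knockout with DMSO. In wild type they summed to 23.5 FPKM with tunicamycin and to 9.23 FPKM with DMSO. The hepatocyte marker Ttr stood at 1493 FPKM in the knockout with tunicamycin, 3973 in the knockout with DMSO, 1671 in wild type with tunicamycin and 5055 in wild type with DMSO. With tunicamycin 3 of 7 tested hepatocyte markers were lower in the knockout, against 14.8% of all tested loci, and 2 of 7 in wild type, against 19%. Tat was at 0.58 in the knockout and 0.87 in wild type (log2, not called, the authors' deposited table). Albumin is listed at 0 in all 4 groups with a status that marks too many fragments to fit. A value of bulk liver cannot tell fewer cells of a type from less RNA per cell.

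The promoters of the 3 genes with the largest rises, and of Gabarapl1, the gene lower in the stressed knockout, are shown because the search for stress-response elements was made in such windows. The 250 bases before the start are printed 5′ to 3′ on the gene's strand, from RefSeq in build GRCm38.p6, with matches to the searched elements in capitals. They lie at chr11:50210821-50211070 (minus strand) for Sqstm1, chr7:101302089-101302338 (minus strand) for Atg16l2, chr2:91710593-91710842 (minus strand) for Atg13 and chr6:129532942-129533191 (plus strand) for Gabarapl1.
Sqstm1: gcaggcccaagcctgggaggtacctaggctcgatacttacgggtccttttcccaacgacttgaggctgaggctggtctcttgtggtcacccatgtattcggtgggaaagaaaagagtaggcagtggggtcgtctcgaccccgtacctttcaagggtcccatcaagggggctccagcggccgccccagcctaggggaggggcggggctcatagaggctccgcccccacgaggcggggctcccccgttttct
Atg16l2: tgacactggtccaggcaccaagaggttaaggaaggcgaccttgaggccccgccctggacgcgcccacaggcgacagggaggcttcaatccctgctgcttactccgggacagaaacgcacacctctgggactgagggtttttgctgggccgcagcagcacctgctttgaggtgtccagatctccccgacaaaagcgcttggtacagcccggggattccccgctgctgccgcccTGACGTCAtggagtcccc
Atg13: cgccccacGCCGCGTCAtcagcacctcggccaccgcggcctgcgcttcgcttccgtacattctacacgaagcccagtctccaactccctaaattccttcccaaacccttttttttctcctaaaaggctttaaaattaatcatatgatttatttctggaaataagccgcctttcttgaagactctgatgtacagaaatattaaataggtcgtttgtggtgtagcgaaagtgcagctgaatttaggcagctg
Gabarapl1: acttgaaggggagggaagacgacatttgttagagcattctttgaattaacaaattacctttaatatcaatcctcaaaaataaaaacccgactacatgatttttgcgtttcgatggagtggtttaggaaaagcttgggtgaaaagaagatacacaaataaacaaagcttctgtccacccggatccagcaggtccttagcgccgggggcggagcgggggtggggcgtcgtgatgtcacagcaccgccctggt

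In Atg16l2 the capitals mark a cAMP response element, TGACGTCA, whose last base lies 11 bases before the start. In Atg13 they mark a match to the antioxidant element core TGACNNNGC on the opposite strand, 234 bases before the start at its nearest base. The windows of Sqstm1 and Gabarapl1 held none of the 6 searched elements before the start. Windows of 300 bases (250 before and 50 after the start) were found for 30 of the 36 members, among 27025 genes with 32851 windows in all, and both strands were read. A gene counts as matched when any of its windows holds the element. The C/EBP-ATF element TGATGNAA, which ATF4 binds with C/EBP partners, matched in 0 of the 30 members, against 4.51% of all genes. The ER stress response element, which ATF6 binds, also matched in 0 of 30, against 0.137% of all genes. The E-box CACGTG, the core of the element that TFEB reads, matched in 4 members (Atg14, Atg7, Atg5 and Atg3) and in 8.09% of genes. The cAMP response element matched in Atg5 and Atg16l2 and in 2.03% of genes, and the XBP1 core TGACGTG in Atg4a and Nbr1 and in 2.22%. The antioxidant core, whose letters can overlap those of the XBP1 core, matched in Ulk2, Atg13 and Map1lc3b and in 14.0% of genes. These matches describe letters near annotated starts and are no evidence of binding.

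In wild-type liver tunicamycin moved the machinery in both directions. The cargo receptor Sqstm1, the conjugation gene Atg16l2 and the kinase subunit Atg13 rose most, and the transcription factor Tfeb, the PI3-kinase subunit Atg14 and the kinase subunit Atg101 fell most. Of 36 members 9 rose and 7 fell in the authors' deposited table, 44.4% in all, against 37.1% of 14998 tested loci. The rises made up 25% of the members, against 18.1% of all tested loci, and the falls 19.4%, against 19%. The median log2 change of the members was -0.09, against -0.02 for all tested loci. An unadjusted p under 0.05 was found for 20 members (55.6%), against 46.7% of all tested loci.

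In the knockout 8 members rose and 5 fell in the authors' deposited table, 36.1% in all, against 33% of 15534 tested loci. Rises were 22.2% of members, against 18.1% of loci, and falls 13.9%, against 14.8%. The members' median log2 change was -0.07, against 0.01 for all tested loci, and 17 (47.2%) had an unadjusted p under 0.05, against 42.6% of all tested loci. Rb1cc1, Atg13, Uvrag, Wipi2, Atg16l2, Atg4d and Sqstm1 rose in both genotypes, and Ulk1, Ulk2, Atg14 and Tfeb fell in both. Ambra1 and Wipi1 passed this threshold as rises, and Atg101, Gabarapl2 and Atg4c as falls, in wild type but not in the knockout, while Map1lc3a rose and Optn fell in the knockout but not in wild type. The other 18 members were not called in either genotype. Tested directly, the difference between both responses passed for 0 of 36 members after Benjamini-Hochberg adjustment over 14510 loci, of which 1.01% passed. At an unadjusted p under 0.05 there was 1 member, Map1lc3a.

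**Figure D1:**
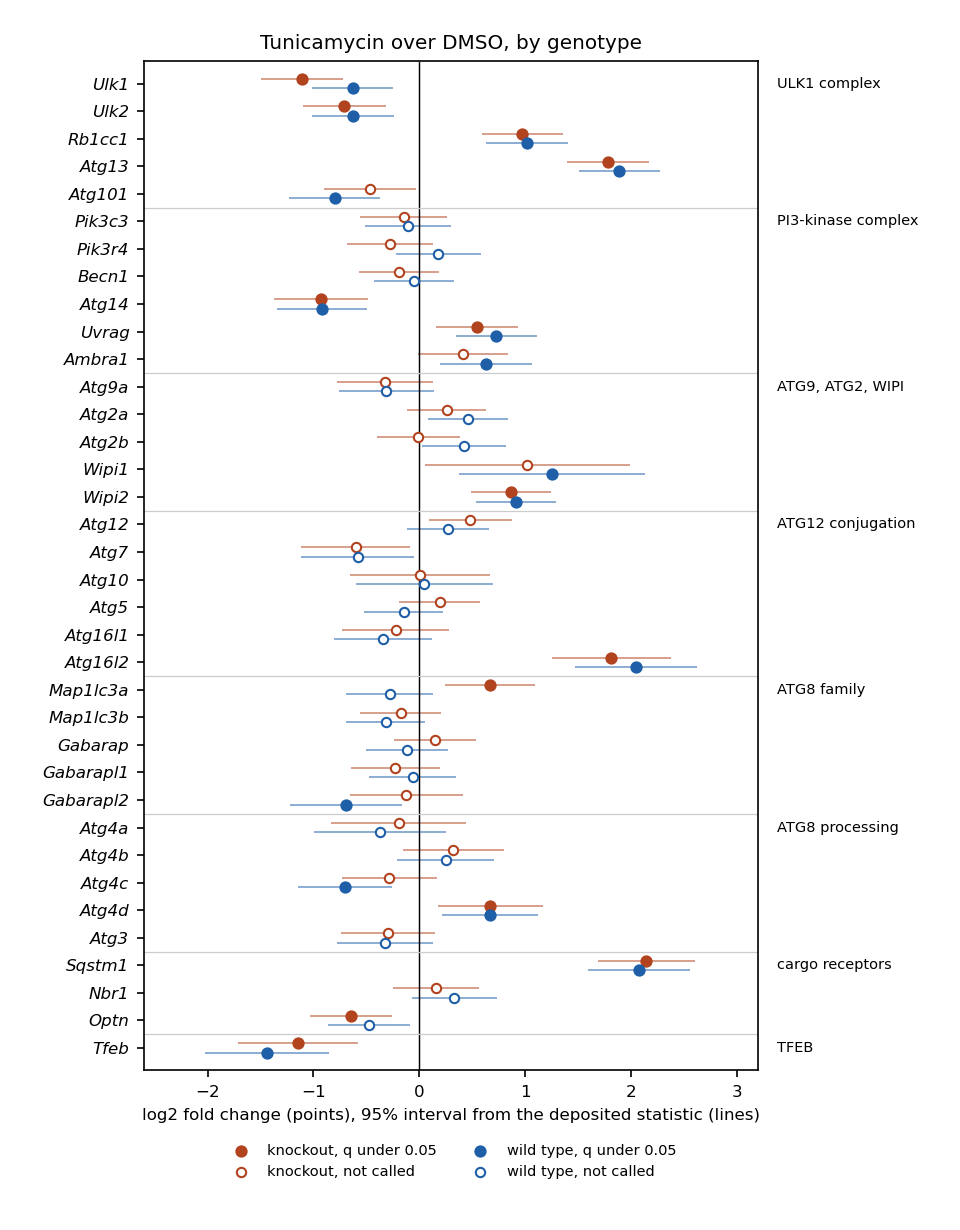
Log2 fold change of tunicamycin over DMSO (horizontal axis) for the 36 members, grouped by role, in the knockout (red) and in wild type (blue), with 95% intervals from the deposited statistic and filled points for q under 0.05. Sqstm1, Atg16l2 and Atg13 stand between 1.78 and 2.14 in both genotypes, Tfeb at -1.14 in the knockout and -1.44 in wild type, and the points of Map1lc3a lie on opposite sides of 0.

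Within the ULK1 complex, the subunits Atg13 and Rb1cc1 rose in both genotypes while the kinases fell. Atg13, the subunit that links the kinase to its scaffold, stood at 54.3 FPKM in the knockout with tunicamycin, 15.8 in the knockout with DMSO, 68.5 in wild type with tunicamycin and 18.5 in wild type with DMSO. Its log2 change with tunicamycin was 1.78 in the knockout and 1.89 in wild type, a rise in each by the authors' deposited table (q 0.000396 each). Rb1cc1, the large scaffold also called FIP200, had 18.6 and 9.51 FPKM in the knockout with tunicamycin and with DMSO, and 24.01 and 11.88 FPKM in wild type with tunicamycin and with DMSO. It rose by 0.97 in the knockout and by 1.02 in wild type on the log2 scale of the authors' deposited table. Both subunits were thus at least 1.96 times higher with tunicamycin in each genotype, and neither was called between genotypes.

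Ulk1, the main initiating kinase, stood at 11.2 FPKM in the knockout with tunicamycin, 24.2 in the knockout with DMSO, 13.9 in wild type with tunicamycin and 21.5 in wild type with DMSO. The authors' deposited table gives log2 changes of -1.11 in the knockout and -0.63 in wild type (q 0.000396 and 0.00678). The difference of these changes, knockout minus wild type, was -0.48 (95% interval -1.03 to 0.06, unadjusted p 0.0836). Its paralogue Ulk2 fell by 0.71 in the knockout and by 0.63 in wild type on the log2 scale of the authors' deposited table. Atg101, which stabilises Atg13, had 14.8 FPKM in each tunicamycin group, against 20.5 in the knockout with DMSO and 25.8 in wild type with DMSO. Its fall was called in wild type (-0.80, q 0.00315) and not in the knockout (-0.47, q 0.116) in the authors' deposited table. Against wild type with DMSO, which shares lane 4, the knockout with tunicamycin was at -0.80 (q 0.0023) for Atg101 in the authors' deposited table. Genotype and treatment both differ in that comparison, so its values are not the tunicamycin response of the knockout.

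In the class III PI3-kinase complex the common core was not called and the subunits that direct it diverged. The lipid kinase Pik3c3 ranged from 7.40 to 9.34 FPKM over the 4 groups, its regulatory subunit Pik3r4 from 5.90 to 7.15 FPKM and the scaffold Becn1 from 30.5 to 34.9 FPKM, with no call in any of the 4 comparisons. The tunicamycin changes of these 3 genes lay between -0.28 and 0.18 (log2) in the authors' deposited table, so changes as large as that of Atg14 were outside each of their 95% intervals. Atg14, which brings the complex to the site of autophagosome formation, had 3.68 FPKM in the knockout with tunicamycin, 6.99 in the knockout with DMSO, 4.62 in wild type with tunicamycin and 8.75 in wild type with DMSO. It fell by 0.93 in the knockout and by 0.92 in wild type on the log2 scale of the authors' deposited table, and the difference of these changes had a 95% interval of -0.62 to 0.61.

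Uvrag, the subunit of the endosomal form of the complex, moved the other way. It had 15.5 FPKM in the knockout with tunicamycin and 10.6 in the knockout with DMSO, and 20.2 in wild type with tunicamycin and 12.2 in wild type with DMSO. The rise was 0.54 in the knockout (q 0.0277) and 0.73 in wild type (q 0.00171) by the authors' deposited table. Against wild type with DMSO on the same lane, the knockout with tunicamycin was at 0.34 and not called (q 0.212, the authors' deposited table). Genotype also differs there, and knockout over wild type with DMSO was at -0.20 for Uvrag (q 0.551, not called, the authors' deposited table). Ambra1, a scaffold that binds beclin, rose in wild type (0.63, q 0.0213) and stood at 0.42 in the knockout (q 0.16) in the authors' deposited table.

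Among the genes for lipid supply and phosphoinositide reading, Wipi2 rose in both genotypes and Wipi1 in wild type, and the others were not called. Wipi2, which binds phosphatidylinositol 3-phosphate and recruits the conjugation machinery, stood at 39.2 FPKM in the knockout with tunicamycin, 21.5 in the knockout with DMSO, 47.0 in wild type with tunicamycin and 24.999 in wild type with DMSO. It rose by 0.87 in the knockout and by 0.91 in wild type on the log2 scale of the authors' deposited table. Wipi1 had 11.9 and 5.87 FPKM in the knockout with tunicamycin and with DMSO, and 15.98 and 6.72 FPKM in wild type with tunicamycin and with DMSO. Its change was 1.25 in wild type (q 0.0404) and 1.02 in the knockout (q 0.151) in the authors' deposited table, with intervals wider than those of other members. Wipi1 shares its mapped interval with Arsg and the transporter Slc16a6, and Slc16a6 rose in both genotypes (2.18 in the knockout and 2.59 in wild type, the authors' deposited table). Arsg rose in wild type (1.36, q 0.00287) and was at 0.93 in the knockout (q 0.152), and the overlapping LOC100503496 was not called (2.40 in the knockout and 2.19 in wild type), in the authors' deposited table. Whether reads were split between these loci was not tested. In all, 9 members share a mapped interval with another locus, among them Atg4d with Kri1, which was not called in either genotype, and Gabarapl1 with 1700101I11Rik, which stayed at or under 0.528 FPKM. The lipid-transfer genes Atg2a and Atg2b had log2 values of 0.26 and -0.01 in the knockout and of 0.46 and 0.42 in wild type, and the scramblase gene Atg9a of -0.33 in the knockout and -0.31 in wild type, none of them called in the authors' deposited table.

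Of the ATG12 conjugation genes, Atg16l2 was the only member called, in both genotypes. Atg16l2, a paralogue of the membrane-targeting subunit Atg16l1, was among the least abundant members without stress, and stood at 8.29 FPKM in the knockout with tunicamycin, 2.36 in the knockout with DMSO, 9.17 in wild type with tunicamycin and 2.23 in wild type with DMSO. It rose by 1.81 in the knockout and by 2.04 in wild type on the log2 scale of the authors' deposited table. Atg16l1 itself ranged from 13.6 to 17.2 FPKM and was not called in any comparison. Its level exceeded that of Atg16l2 in every group, by 14.4 against 8.29 FPKM in the knockout with tunicamycin and by 13.6 against 9.17 FPKM in wild type with tunicamycin.

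The other conjugation genes had no call. Atg12 ranged from 13.4 to 20.9 FPKM, its acceptor Atg5 from 23.4 to 30.3 FPKM and the activating enzyme Atg7 from 9.55 to 15.2 FPKM. The conjugating enzyme Atg10 stayed between 2.62 and 3.01 FPKM. Atg7 was at -0.60 in the knockout (q 0.0784) and at -0.58 in wild type (q 0.104) in the authors' deposited table.

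The ATG8 family had the largest summed level of any role without stress, and it holds the 3 members called between genotypes. Gabarapl1 had 140 FPKM in the knockout with tunicamycin, 164 in the knockout with DMSO, 228 in wild type with tunicamycin and 238 in wild type with DMSO, so both knockout values lie under both wild-type values. With tunicamycin it was lower in the knockout than in wild type, at -0.70 on the log2 scale (95% interval -1.10 to -0.30, q 0.00502, the authors' deposited table). With DMSO the value was -0.54 (q 0.0542, not called, the authors' deposited table). Tunicamycin itself gave -0.23 in the knockout and -0.06 in wild type, neither called in the authors' deposited table. The gene ranked 368 of 10921 named loci at or above 1 FPKM in wild type with DMSO, the highest of the members.

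Map1lc3b, the LC3 gene most used as an autophagosome marker, had 35.96 FPKM in the knockout with tunicamycin, 40.7 in the knockout with DMSO, 48.3 in wild type with tunicamycin and 60.3 in wild type with DMSO. Both knockout values again lie under both wild-type values. With DMSO it was lower in the knockout (-0.57, q 0.016, the authors' deposited table), but with q computed over this comparison alone it was not called (q 0.233), and its 1.48-fold difference is under the 1.5-fold minimum of another setting. With tunicamycin the value was -0.43 (q 0.0923) in the authors' deposited table.

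Map1lc3a, the other LC3 gene, did the reverse under stress. It had 40.8 FPKM in the knockout with tunicamycin, against 25.8 in the knockout with DMSO, 26.9 in wild type with tunicamycin and 32.7 in wild type with DMSO. It was higher in the knockout than in wild type with tunicamycin (0.60, q 0.0229), and it rose with tunicamycin in the knockout (0.66, q 0.0108) in the authors' deposited table, while wild type was at -0.28 (q 0.383). The difference of both tunicamycin changes was 0.94 (95% interval 0.35 to 1.53, unadjusted p 0.00175), with an adjusted p of 0.127 over all loci. With q computed over the comparison under tunicamycin alone, its higher level in the knockout was not called (q 0.107). Against wild type with DMSO on lane 4, the knockout with tunicamycin was at 0.32 (q 0.312, the authors' deposited table). Genotype also differs there, and knockout over wild type with DMSO was at -0.35 for Map1lc3a (q 0.252, not called, the authors' deposited table).

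The group where Map1lc3a was high is the one that carried transcripts of other tissues. Its pooled value does not tell how many of its libraries carried them. All 10 skeletal muscle markers were above 0 there and summed to 339 FPKM, against 1.98 in the knockout with DMSO, 4.96 in wild type with tunicamycin and 1.72 in wild type with DMSO. Pvalb was at 0 in both DMSO groups and Ckm in wild type with DMSO. The 7 fat markers summed to 275 FPKM in the knockout with tunicamycin, 28.5 in the knockout with DMSO, 32.8 in wild type with tunicamycin and 18.96 in wild type with DMSO, with Plin1 and Lep at 0 in wild type with tunicamycin and Lep at 0 in wild type with DMSO. With tunicamycin, 6 of 10 tested muscle markers, 3 of 7 for adrenal cortex and 3 of 6 for fat were higher in the knockout than in wild type. Of all tested loci 3.73% were higher. In that comparison 1 of 7 tested hepatocyte markers was lower in the knockout and 0 were higher, against 2.19% lower of all tested loci. It was Hnf4a (-0.63, q 0.0339, the authors' deposited table). The part of these tissues and of hepatocytes in the values of Map1lc3a and Gabarapl1 was not tested. In the comparison that called Map1lc3b, 7 of 7 endothelial markers were higher in the knockout, against 1.39% of all tested loci. Their summed level was 77.6 FPKM in the knockout with DMSO and 45.1 FPKM in wild type with DMSO. Of 7 stellate cell markers 4 were higher in that comparison too, against the same 1.39%. The part of either list was not tested.

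The GABARAP genes Gabarap and Gabarapl2 were not called between genotypes. Gabarap had 192 FPKM in the knockout with tunicamycin, 174 in the knockout with DMSO, 203 in wild type with tunicamycin and 220.0 in wild type with DMSO. Gabarapl2 fell in wild type with tunicamycin (-0.69, q 0.0399) and stood at -0.12 in the knockout (q 0.831) in the authors' deposited table. The summed FPKM of the 5 genes was 421 in the knockout with tunicamycin, 417 in the knockout with DMSO, 517 in wild type with tunicamycin and 568 in wild type with DMSO. The knockout sum was thus 0.814 of the wild-type sum with tunicamycin and 0.734 of it with DMSO. The other roles of several genes had such ratios from 0.820 to 0.966 with tunicamycin and from 0.845 to 0.961 with DMSO. No sum was tested, and genotype cannot be told apart from lane in the DMSO ratios. Within the ATG8 sum, Gabarapl1 held 33.3% in the knockout with tunicamycin and 39.4% in the knockout with DMSO. In wild type it held 44.1% with tunicamycin and 41.9% with DMSO.

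**Figure D2:**
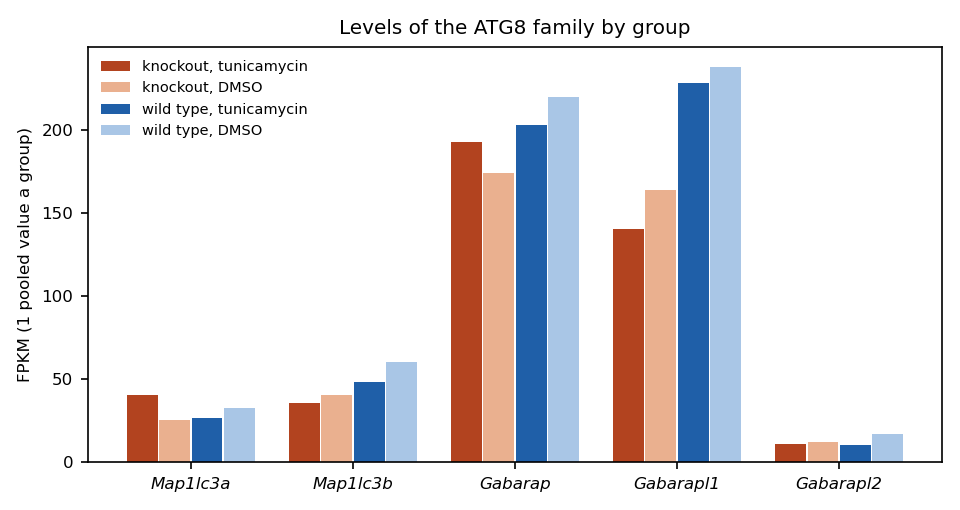
FPKM (vertical axis, 1 pooled value a group, with no error available) of the 5 ATG8 family genes in the knockout with tunicamycin, the knockout with DMSO, wild type with tunicamycin and wild type with DMSO. Gabarapl1 stands at 140 and 164 FPKM in the knockout groups and at 228 and 238 FPKM in the wild-type groups, and Map1lc3a is highest, at 40.8 FPKM, in the knockout with tunicamycin.

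The enzymes that process ATG8 proteins gave few calls. Atg4d, a protease of this family, had 16.3 and 10.3 FPKM in the knockout with tunicamycin and with DMSO, and 20.7 and 13.04 FPKM in wild type with tunicamycin and with DMSO. It rose by 0.67 in each genotype in the authors' deposited table (q 0.0387 in the knockout and 0.0213 in wild type). On lane 4 alone, the knockout with tunicamycin against wild type with DMSO was at 0.33 and not called (q 0.397, the authors' deposited table). Genotype also differs there, and knockout over wild type with DMSO was at -0.34 for Atg4d (q 0.365, not called, the authors' deposited table). Atg4c fell in wild type (-0.70, q 0.00938) and stood at -0.28 in the knockout (q 0.43) in the authors' deposited table. The main protease gene Atg4b ranged from 13.5 to 17.8 FPKM, Atg4a from 1.98 to 2.70 FPKM and the conjugating enzyme Atg3 from 35.6 to 51.1 FPKM, with no call.

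Sqstm1, which encodes the cargo receptor p62, showed the largest change of all members. It had 766 FPKM in the knockout with tunicamycin, 174 in the knockout with DMSO, 856 in wild type with tunicamycin and 204 in wild type with DMSO. It rose by 2.14 in the knockout (95% interval 1.69 to 2.60) and by 2.07 in wild type (95% interval 1.59 to 2.55) on the log2 scale of the authors' deposited table, a 4.42-fold and a 4.20-fold change. Knockout over wild type with tunicamycin was -0.16 (95% interval -0.69 to 0.37, the authors' deposited table), so a loss of more than 0.69 on the log2 scale lies outside this interval. The difference of both responses was 0.07 (95% interval -0.59 to 0.74). Nbr1, a related receptor, ranged from 69.4 to 96.8 FPKM and was not called. Optn, a receptor for mitochondria and bacteria, had 30.2 FPKM in the knockout with tunicamycin, 47.2 in the knockout with DMSO, 33.9 in wild type with tunicamycin and 47.2 in wild type with DMSO. Its fall was called in the knockout (-0.64, q 0.00774) and not in wild type (-0.48, q 0.058) in the authors' deposited table, though in wild type it was called with q over that comparison alone (q 0.0393), and the difference was -0.17 (95% interval -0.71 to 0.38).

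Tfeb, the transcription factor that drives many autophagy and lysosome genes, was at 2.09 FPKM in the knockout with tunicamycin, 4.62 in the knockout with DMSO, 1.79 in wild type with tunicamycin and 4.84 in wild type with DMSO. It fell by 1.14 in the knockout (q 0.002) and by 1.44 in wild type (q 0.000396) on the log2 scale of the authors' deposited table. Its relatives rose: Tfe3 by 0.78 in the knockout and by 1.10 in wild type, and Mitf by 1.75 in the knockout and by 1.85 in wild type, in the authors' deposited table. TFEB protein is known to be controlled mainly through its phosphorylation and its place in the cell.

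Few members were called between genotypes at the same treatment. With tunicamycin 1 of 36 was higher (Map1lc3a) and 1 lower (Gabarapl1) in the knockout in the authors' deposited table, 5.56% of members, against 5.92% of 14919 tested loci (3.73% higher and 2.19% lower). With DMSO 0 were higher and 1 was lower (Map1lc3b), 2.78%, against 2.86% of 14788 loci (1.39% higher and 1.47% lower). Cuffdiff gave an unadjusted p under 0.05 for 4 members with tunicamycin (11.1%, against 10.4% of all tested loci) and for 3 with DMSO (8.33%, against 7.13%). Most values lay under 0, 29 of 36 with tunicamycin, against 55.9% of all tested loci, and 30 of 36 with DMSO, against 59.1%. Both comparisons share no library, and 24 members were below 0 in each, against 38% of 13756 loci tested in both. The members' medians were -0.19 with tunicamycin and -0.20 with DMSO, against -0.04 with tunicamycin and -0.07 with DMSO for all tested loci. The choice of members was made with results of these data known, and the DMSO comparison cannot separate genotype from lane. The tunicamycin comparison holds the group that carried transcripts of other tissues, and their part in these signs was not tested.

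**Figure D3:**
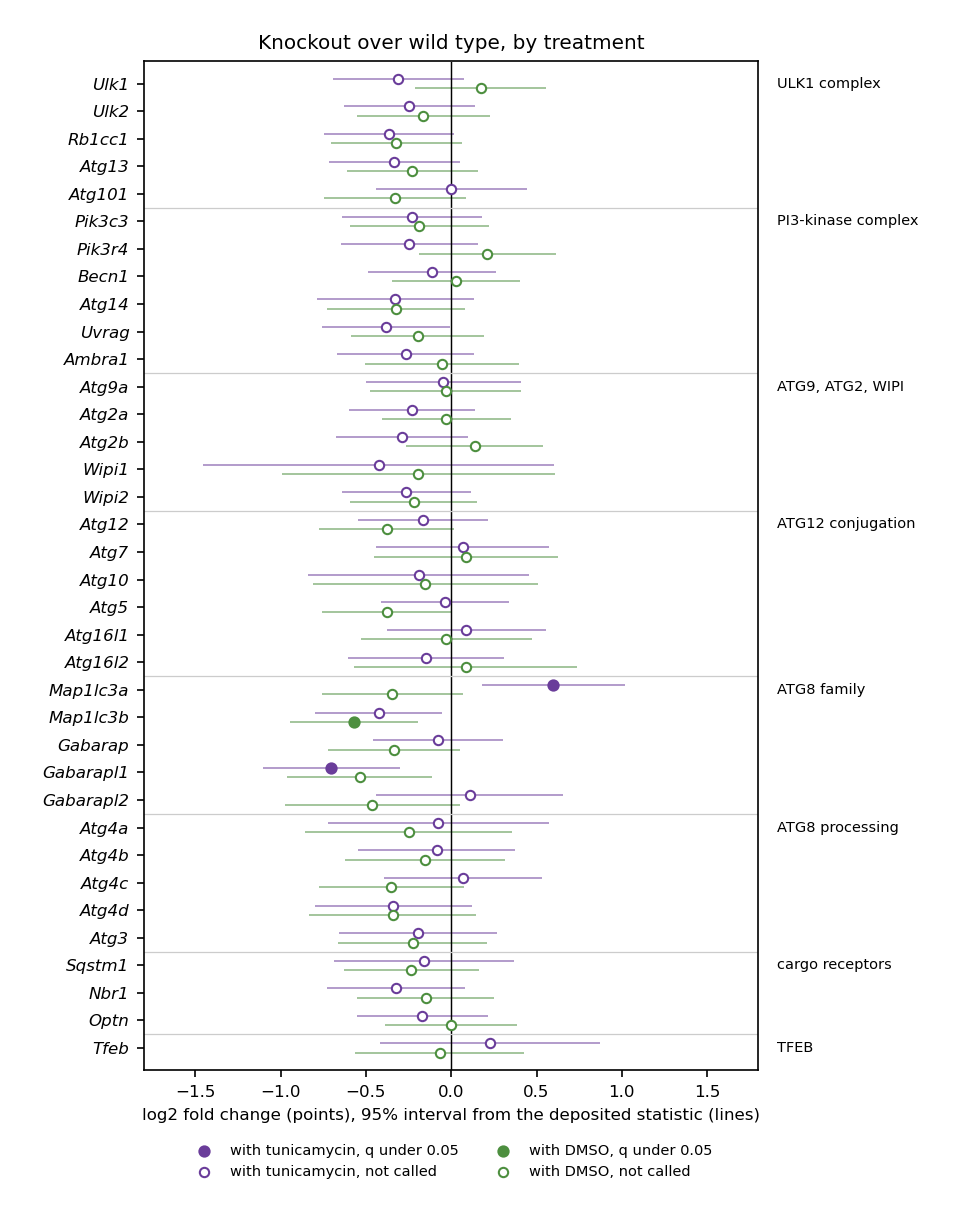
Log2 fold change of knockout over wild type (horizontal axis) for the 36 members with tunicamycin (purple) and with DMSO (green), with 95% intervals from the deposited statistic and filled points for q under 0.05. Filled points are Map1lc3a (0.60) and Gabarapl1 (-0.70) with tunicamycin and Map1lc3b (-0.57) with DMSO.

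The 12 members known from amino-acid-starved fibroblasts to need ATF4 or CHOP were Atg16l1, Map1lc3b, Atg12, Atg3, Becn1, Gabarapl2, Sqstm1, Nbr1, Atg7, Atg10, Gabarap and Atg5. With tunicamycin 1 of them (Sqstm1) rose in each genotype, and 1 fell in wild type (Gabarapl2) and 0 in the knockout, in the authors' deposited table. That is 8.33% higher in each genotype, against 18.1% of all tested loci, and 0% lower in the knockout and 8.33% in wild type, against 14.8% and 19% of all tested loci in those genotypes. Between genotypes with tunicamycin Cuffdiff called 0 of the 12, against 5.92% of all tested loci. It gave an unadjusted p under 0.05 for 1 of them (Map1lc3b), against 10.4% of all tested loci. With DMSO 1 of the 12 (8.33%) was lower in the knockout, again Map1lc3b, against 1.47% of all tested loci. This single call was lost with q computed over that comparison alone (q 0.233), and genotype cannot be told apart from lane there. Chop itself, the gene Ddit3, stood at 2066 FPKM in the knockout with tunicamycin and 10.0 with DMSO, and at 2385 FPKM in wild type with tunicamycin and 15.2 with DMSO.

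Genes on either side of the machinery were read from lists of the same pathway, written with earlier results of these data known. The list of upstream regulators includes genes of the stress response itself, such as Ddit3 and Ern1, so its shares are no test. Upstream regulators rose at 10 of 21 in each genotype, with 3 falls in the knockout and 4 in wild type in the authors' deposited table. The rises were 47.6% of the list, against 18.1% of all tested loci, and the falls 14.3% in the knockout, against 14.8%, and 19% in wild type, against 19%. Among the rises, Sesn2, a brake on the growth kinase mTOR, had 15.5 and 7.03 FPKM in the knockout with tunicamycin and with DMSO, and 16.4 and 4.89 FPKM in wild type with tunicamycin and with DMSO. Ddit4, another such brake, was lower with tunicamycin in the knockout (22.1 FPKM) than in wild type (52.0 FPKM, log2 -1.24, the authors' deposited table). The stress sensor Ern1 (-0.59) and the mTOR inhibitor Deptor (-0.57) were also lower in the knockout with tunicamycin, which made 3 of 20 regulators in the authors' deposited table, 15%, against 2.19% of all tested loci. The falls included Foxo1, a transcription factor that drives autophagy genes (-1.56 in the knockout and -1.26 in wild type), and Prkaa2, a catalytic subunit of the energy-sensing kinase AMPK (-0.75 in the knockout and -0.76 in wild type), in the authors' deposited table.

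Further core and fusion genes gave 4 rises and 4 falls of 22 in each genotype, 18.2% each way, against 18.1% higher in both genotypes and 14.8% lower in the knockout and 19% lower in wild type over all tested loci. Tmem41b, an ER scramblase needed for autophagosome formation, rose by 1.67 in the knockout and by 1.76 in wild type, and Epg5, a tether for fusion with lysosomes, rose by 0.98 in the knockout and by 1.79 in wild type, in the authors' deposited table. Epg5 was lower with tunicamycin in the knockout (12.2 FPKM) than in wild type (19.7 FPKM, log2 -0.69, q 0.00108, the authors' deposited table). The difference of its tunicamycin changes was -0.81 with a standard error of 0.28 and an adjusted p of 0.207 over all loci. Vamp8, a SNARE protein of the same fusion step, fell by 0.90 in the knockout and by 1.28 in wild type on the log2 scale of the authors' deposited table.

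Receptors for autophagy of the ER fell where they were called: 4 of 9 in the knockout, against 14.8% of all tested loci, and 5 of 9 in wild type, against 19%, with 0 rises in either. Retreg3 (listed as Fam134c) had 14.3 and 33.5 FPKM in the knockout with tunicamycin and with DMSO, and 10.5 and 44.5 FPKM in wild type with tunicamycin and with DMSO. Its changes were -1.23 in the knockout and -2.09 in wild type in the authors' deposited table, a difference of 0.86 (standard error 0.28) with an adjusted p of 0.131. Atl3 and Calcoco1 fell in both genotypes too. Of 11 other receptors 2 rose and 2 fell in each genotype, also 18.2% each way, near the shares of all tested loci. The rises were Fundc1, a receptor for mitochondria (1.45 in the knockout and 1.20 in wild type), and Stbd1, a receptor for glycogen at a locus merged with another gene name (1.82 in the knockout and 1.74 in wild type), in the authors' deposited table. With DMSO, 1 of the 11 was lower in the knockout, against 1.47% of all tested loci. It was the mitochondrial receptor Bnip3 (-0.64, the authors' deposited table), in the comparison where genotype cannot be told apart from lane.

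Lysosomal proteins fell at 10 of 27 in the knockout (37% of tested members, against 14.8% of loci) and at 14 of 27 in wild type (51.9%, against 19%) in the authors' deposited table. Lamp1 and Lamp2, the most abundant membrane proteins of the lysosome, stood at 166 and 142 FPKM in the knockout with tunicamycin and at 297 and 282 FPKM in the knockout with DMSO. In wild type they stood at 157 and 165 FPKM with tunicamycin and at 352 and 367 FPKM with DMSO. Rises were 11.1% of the list in the knockout and 7.41% in wild type, against 18.1% of all tested loci in each. The sterol exporter Npc1 rose by 2.41 in the knockout and by 2.70 in wild type, in the authors' deposited table. The protease Ctsl rose by 2.19 in the knockout and by 1.99 in wild type, in the authors' deposited table. Cd63 rose in the knockout alone by this threshold (0.99, the authors' deposited table). Cd63 was also higher with tunicamycin in the knockout (6.14 FPKM) than in wild type (2.48 FPKM), in the group that carried transcripts of other tissues. The 8 hepatocyte markers summed to 8666 FPKM in the knockout with tunicamycin, 13548 in the knockout with DMSO, 9912 in wild type with tunicamycin and 16122 in wild type with DMSO, and their part in these falls was not tested. Of 16 subunits of the proton pump that acidifies lysosomes, 2 rose and 1 fell in the knockout, and 1 rose and 3 fell in wild type. The rises (12.5% in the knockout and 6.25% in wild type) stood against 18.1% of all tested loci, and the falls were 6.25% in the knockout, against 14.8%, and 18.8% in wild type, against 19%.

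**Figure D4:**
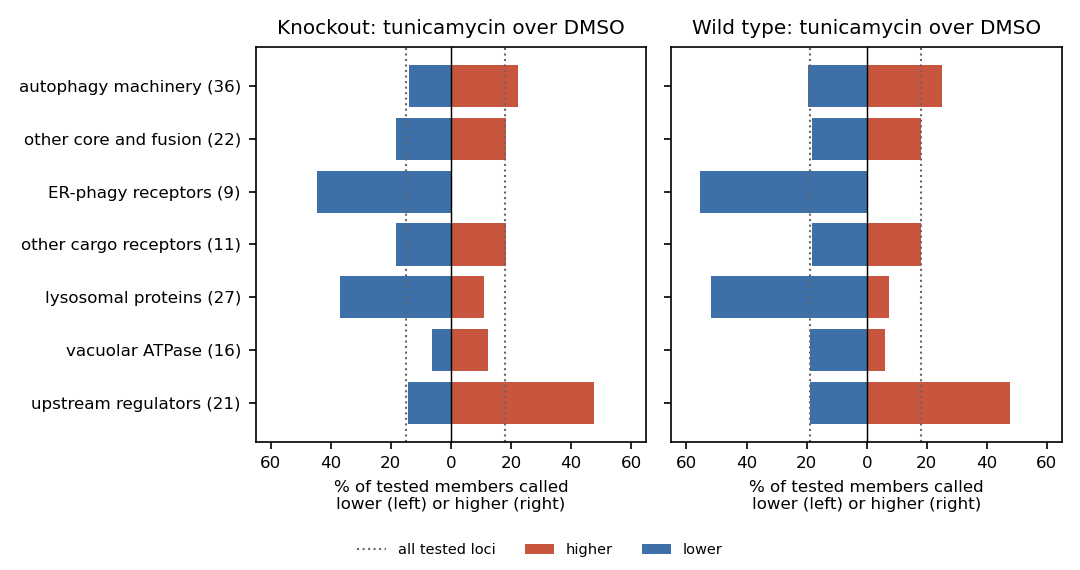
Share of tested members called lower (bars to the left) or higher (bars to the right) with tunicamycin, in percent, for the autophagy machinery and 6 further lists of the same pathway (number tested in brackets), in the knockout and in wild type. Dotted lines give the shares of all tested loci, 14.8% lower and 18.1% higher in the knockout and 19% lower and 18.1% higher in wild type, and the bars of ER-phagy receptors and lysosomal proteins reach furthest to the left.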

How the data were processed

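Poly(A) RNA of liver was sequenced in 12 libraries, 3 in each of 4 groups, and replicate libraries share no labelled pairing. Per the submitters' processing notes, bcl2fastq, TopHat2 2.0.4, Cufflinks and Cuffdiff were used with build mm9. Spike-in RNA was added, per the labels' protocols. Annotation, library strand, use of the spike-ins, and scaling were not given in the sources used here. Per the file headers, the deposited FPKM is 1 pooled value per locus and group. The authors' deposited table also holds, for each comparison, the log2 ratio of both groups, the statistic of the test (a score), its p-value and its q-value. The q-values matched those of Benjamini-Hochberg over all 90828 tests of 6 comparisons, within 5.29e-07. Of these, 4 comparisons were used throughout. That of the knockout with tunicamycin against wild type with DMSO was used only as an alternative on lane 4. Depth per library is unknown.

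The standard error of a log2 fold change was its size divided by the product of the deposited statistic's size and 1.73. This factor makes the statistic match the deposited p-values. The difference of both tunicamycin responses was tested with these errors (two-sided normal p, adjusted over 14510 loci), and this test was checked on simulated data. Values per library were not used here, so the test planned for group values applied. The named genes are all members and, of the other lists, called genes with the largest changes, plus a few chosen for their role after their values were seen (Sesn2, Prkaa2, Tfe3, Mitf and Cd63). Members and lists were chosen with earlier results of these data known. Older symbols were matched through RefSeq names. Computations used Python 3.11.15 with numpy 2.4.6, pandas 2.3.3 and scipy 1.17.1.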

Additional observations from a re-analysis of the deposited data

How the results depend on the processing

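No paired analysis was possible because the labels number no replicates and each group has 1 pooled value, and for the same reason no library could be left out. With q under 0.01 the rises in the knockout numbered 5 in place of 8, without Uvrag, Map1lc3a and Atg4d. An alternative chosen after the data were seen set the knockout with tunicamycin against wild type with DMSO, all on lane 4. Genotype and treatment both differ in it, so it is not the tunicamycin response of the knockout. It had 5 members higher and 9 lower, in place of 8 and 5. That is 13.9% higher and 25% lower, against 18% higher and 17.9% lower of 15389 tested loci. Uvrag, Map1lc3a and Atg4d were not called there, while Atg101, Map1lc3b, Gabarapl1 and Atg4c were called lower. Between genotypes with DMSO, the 1 lower member (Map1lc3b) became 0 with q over this comparison alone, with q under 0.01, with loci of at least 1 FPKM, and with a minimum of 1.5-fold. With tunicamycin the 1 higher member (Map1lc3a) became 0 with q over this comparison alone, with q under 0.01 and with loci of at least 1 FPKM. In wild type, Ambra1, Wipi1, Atg4d and Gabarapl2 were not called with q under 0.01, while Optn (q 0.0393) and Atg2a (q 0.0429) were called with q over that comparison alone and also with loci of at least 1 FPKM. In the knockout Atg12 was called (q 0.047) with loci of at least 1 FPKM, and Uvrag was not with a minimum of 1.5-fold. Centring on the median of all loci changed the direction of 0 of 39 gene results called under any setting. A pseudocount cannot change a direction, and no member lies at a merged locus, so these settings could not change a call. Members that differ between both responses numbered 0 with an adjusted p under 0.1 and with loci of at least 1 FPKM in all 4 groups. For the lane 4 comparison the cause was not tested, and the other changes follow from the construction of the settings.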
